A study of Triticum aestivum with 12 samples.

Results

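AAC Starbuck was compared with AAC Tradition in the flag leaf, the uppermost leaf of the wheat plant and a main source of sugars for the filling grain. Both are modern spring bread wheat varieties (Triticum aestivum). AAC Starbuck was bred for the Western ecozone of Canada and AAC Tradition for the Eastern one, and the study describes them as the pair with slightly more β-diketone wax among the 4 varieties of the series. By the study's own test, β-diketone did not differ significantly between these 4 varieties. Each variety gave 3 libraries of total RNA, all from the control treatment without drought, and the other 6 libraries of the series come from AAC Concord and AAC Magnet. The labels describe plots in a field with a pair of flag leaves taken per plot, whereas the study places the plants in a greenhouse, and the files do not settle this. No label ties a library to a single plant, so the p-values below measure the spread between these samples. A gene was tested where its normalized count was at least 10 in at least 3 of the 6 libraries, which held for 40839 of the 107411 genes in the table, with 70120 above 0 in at least 1 of the 6.

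Bread wheat is a hexaploid whose A, B and D subgenomes come from different grass ancestors, so most genes are present as homoeologues, near-identical copies on the matching chromosomes of each subgenome. Breeding lines can differ over long stretches of chromosome inherited together, and genes near each other then differ between varieties as a group. The leaf cuticle is covered by wax. Its β-diketones are made by the W1 gene cluster of chromosomes 2B and 2D, which holds polyketide synthases (DKP), hydrolases (DMH) and cytochrome P450 enzymes. CER1 enzymes form the alkanes, and fatty acyl reductases (FAR) form the primary alcohols.

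The normalized counts of a library summed to 5077330 to 5902642, and 58256 to 61166 genes per library were above 0. Low values rose in equal steps within a library. With a step read as 1 read, AAC Starbuck had 4892681 to 6902359 reads per library and AAC Tradition 4612075 to 5694744. A 0 leaves room for up to 3 reads, which equal 2.40 to 3.72 normalized counts and cover counting error only. Across the genes tested, log2(normalized count + 1) correlated at 0.939 to 0.946 between libraries of AAC Starbuck, at 0.937 to 0.964 between libraries of AAC Tradition and at 0.833 to 0.884 between the varieties. These are correlations across genes, which are not independent replicates. Replicate 3 was the AAC Tradition library that correlated least with the other two of its variety. The identifiers carry no descriptions, so the leaf could not be checked against marker genes, and roles are given for the wax genes alone.

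Differentially expressed genes (DEGs) were those that limma, run on log2(normalized count + 1), placed under 0.05 after Benjamini-Hochberg adjustment over all 40839 genes and beyond a 2-fold difference. There were 2083 DEGs, or 5.1% of the genes tested. Of these, 1017 (2.49%) were higher and 1066 (2.61%) were lower in AAC Starbuck. At any fold, 3012 genes (7.38%) had an adjusted p under 0.05, 1386 higher and 1626 lower. The median log2 fold change over all genes tested was 0.007. It was 0.12 when each library was scaled to the same total, and 1309 genes were then higher and 886 lower, so the balance of directions depends on the scaling. In bulk RNA, fewer cells that express a gene and less RNA of it per cell cannot be told apart.

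The DEGs covered a wide range of sizes. The median log2 fold change was 1.74 in size among the higher DEGs and 1.80 among the lower ones. More than a 4-fold difference was found in 418 higher and 459 lower DEGs, and more than a 16-fold difference in 108 and 145. The 3 and 3 libraries did not overlap in 2082 of the 2083 DEGs, as in 11322 (27.7%) of all genes tested. The filter let in 1081 genes through a single variety, with all 3 libraries of that variety at 10 or more and all 3 of the other below 10. Of these, 725 were DEGs, 408 through AAC Starbuck and 317 through AAC Tradition, and such genes had to differ to pass. Among the other 39758 genes tested, 1358 (3.42%) were DEGs.

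The direction of the DEGs followed the level of the gene. Of the 644 DEGs with a mean of up to 20 normalized counts over the 6 libraries, 60.2% were higher in AAC Starbuck. This share was 54.0% of 639 DEGs at means of 20 to 50, 43.6% of 365 at 50 to 100, 30.9% of 366 at 100 to 500 and 17.4% of 69 above 500. At the top level, 12 DEGs were therefore higher and 57 lower in AAC Starbuck. These shares include the DEGs that passed the filter through a single variety, 408 through AAC Starbuck and 317 through AAC Tradition. Their direction was fixed by the filter, so the order of the levels rests in part on them. With the same total in each library the shares were 67.7%, 64.3%, 55.2%, 43.2% and 31.0%, so the order of the levels was the same and the majority at 50 to 100 turned over. The median level of the higher DEGs was 26.8 normalized counts and that of the lower DEGs 46.4, against 51.9 for all genes tested. The libraries of AAC Starbuck held 60489 to 61166 genes above 0, against 58256 to 58986 in AAC Tradition. The median depth was greater in AAC Starbuck (6446233 against 5337936 reads). AAC Starbuck replicate 2 held 60583 genes above 0 at 4892681 reads, and AAC Tradition replicate 2 held 58986 at 5694744 reads. The part of depth in the number of genes above 0 and in the balance at low levels was not tested.

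Among the most abundant DEGs, 4 of each direction were taken by their mean. TraesCS6D02G048300 had 1004, 2867 and 3481 normalized counts in AAC Starbuck, against 563, 530.5 and 221 in AAC Tradition (log2 fold change 2.41 ± 0.54, where ± gives the standard error here and at every fold change below, with an adjusted p of 0.021 from limma). The libraries of AAC Starbuck differed more from each other than those of AAC Tradition, and the lowest of them was still above the highest of AAC Tradition. TraesCS2B02G133500 had 1393, 884 and 1323 in AAC Starbuck, against 406, 381 and 439.7 in AAC Tradition (log2 fold change 1.52 ± 0.24). The other two were TraesCS6D02G378000, at 1297 to 1857 in AAC Starbuck against 554 to 808 in AAC Tradition, and TraesCSU02G214700, described below. On the lower side, TraesCS4D02G134900 had 1614, 1427 and 2107 normalized counts in AAC Starbuck, against 3901, 3920.1 and 4868 in AAC Tradition (log2 fold change -1.31 ± 0.19, adjusted p = 0.0017 from limma). TraesCS3A02G381000, at 1767 to 2116 in AAC Starbuck against 3756 to 4046 in AAC Tradition, was also lower without overlap. TraesCS6A02G000400 had 1618, 1143 and 1355 in AAC Starbuck, against 3767, 3618 and 4803 in AAC Tradition. TraesCS2A02G510400 had 1697, 958 and 853 in AAC Starbuck, against 2822, 2798 and 3839 in AAC Tradition.

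The subgenomes did not hold equal shares of DEGs. On the B subgenome 864 of 13339 genes tested were DEGs (6.48%), on A 657 of 13346 (4.92%) and on D 502 of 13677 (3.67%). Unplaced scaffolds (U) held 60 DEGs among 477 genes (12.6%). Without the genes that passed through a single variety, the shares were 4.23% on B, 3.38% on A, 2.55% on D and 6.80% on U, in the same order. Differences between subgenomes and chromosomes are descriptions, since neighbouring genes do not vary independently.

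Chromosome 6B stood highest among the placed chromosomes, with 186 DEGs of 1739 genes tested (10.7%), followed by 1B with 152 of 1762 (8.63%), 1A with 117 of 1710 (6.84%) and 2B with 143 of 2182 (6.55%). The lowest shares were on 5D, with 63 of 2254 (2.80%), and 7D, with 60 of 1969 (3.05%). When each of the 6 libraries was left out in turn, 6B kept the highest share of the placed chromosomes (9.78% to 10.98%) and 1B the next (6.98% to 8.23%). Homoeologous groups 6 and 1 held 7.11% and 6.50% DEGs, and group 5 held 3.72%. In several chromosomes the directions were uneven. On 1D 22 DEGs were higher and 52 lower in AAC Starbuck, on 2A 28 and 68, on 6B 70 and 116, and on 7A 60 and 38. With the same total in each library these became 29 and 45 on 1D, 39 and 58 on 2A, 85 and 101 on 6B, and 73 and 33 on 7A. Chromosome 1A, at 46 higher and 71 lower, became nearly even under that scaling, at 56 and 58.

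**Figure D1:**
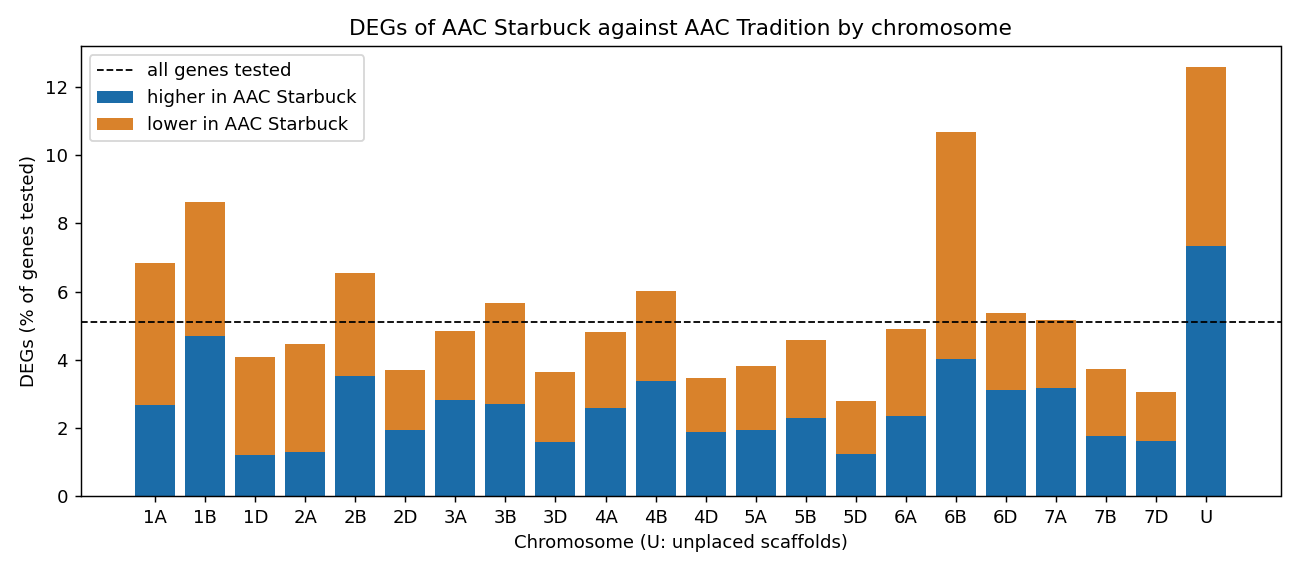
Share of DEGs among the genes tested on each chromosome (percent, vertical axis), split into genes higher (lower part of the bar) and lower (upper part) in AAC Starbuck than in AAC Tradition. The dashed line marks the 5.1% of all genes tested. Chromosome 6B reached 10.7% and 5D 2.80%, and the unplaced scaffolds (U) 12.6%.

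DEGs were more frequent towards the ends of the chromosomes. Genes were ordered by identifier along each chromosome and divided into 10 equal parts of the genes tested. In the first and last of these parts 697 of 8072 genes (8.63%) were DEGs, and in the middle parts 1326 of 32290 (4.11%). The shares by chromosome and by part include the genes that passed the filter through a single variety, which had to differ. The first held 9.12%, the last 8.15% and the fourth, which was the lowest, 2.82%. On the B subgenome the ends held 12.4% against 5.00% in the middle. On A the shares were 7.68% and 4.23%, and on D 5.93% and 3.11%. Neighbours also went together. Of 2023 DEGs on a chromosome that had a tested gene after them, 307 (15.2%) were followed directly by another DEG, and in 231 of these pairs (75.2%) both genes differed in the same direction.

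Stretches dense in DEGs were marked out with windows of 50 consecutive tested genes of which at least 20% were DEGs, joined where they overlapped and trimmed to their first and last DEG. There were 22 such segments, on 13 chromosomes, 13 of them on B, 6 on A and 3 on D. They held 421 DEGs (20.2% of all) in 1568 genes tested (3.84% of all), with 191 higher and 230 lower in AAC Starbuck. Outside them, 1602 of 38794 placed genes (4.13%) were DEGs. Of the 22 segments, 16 reached into the first or last 10% of the genes of their chromosome, and in 4 at least 80% of the DEGs had the same direction. The DEGs themselves define the segments, so their density is not a separate result.

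**Figure D2:**
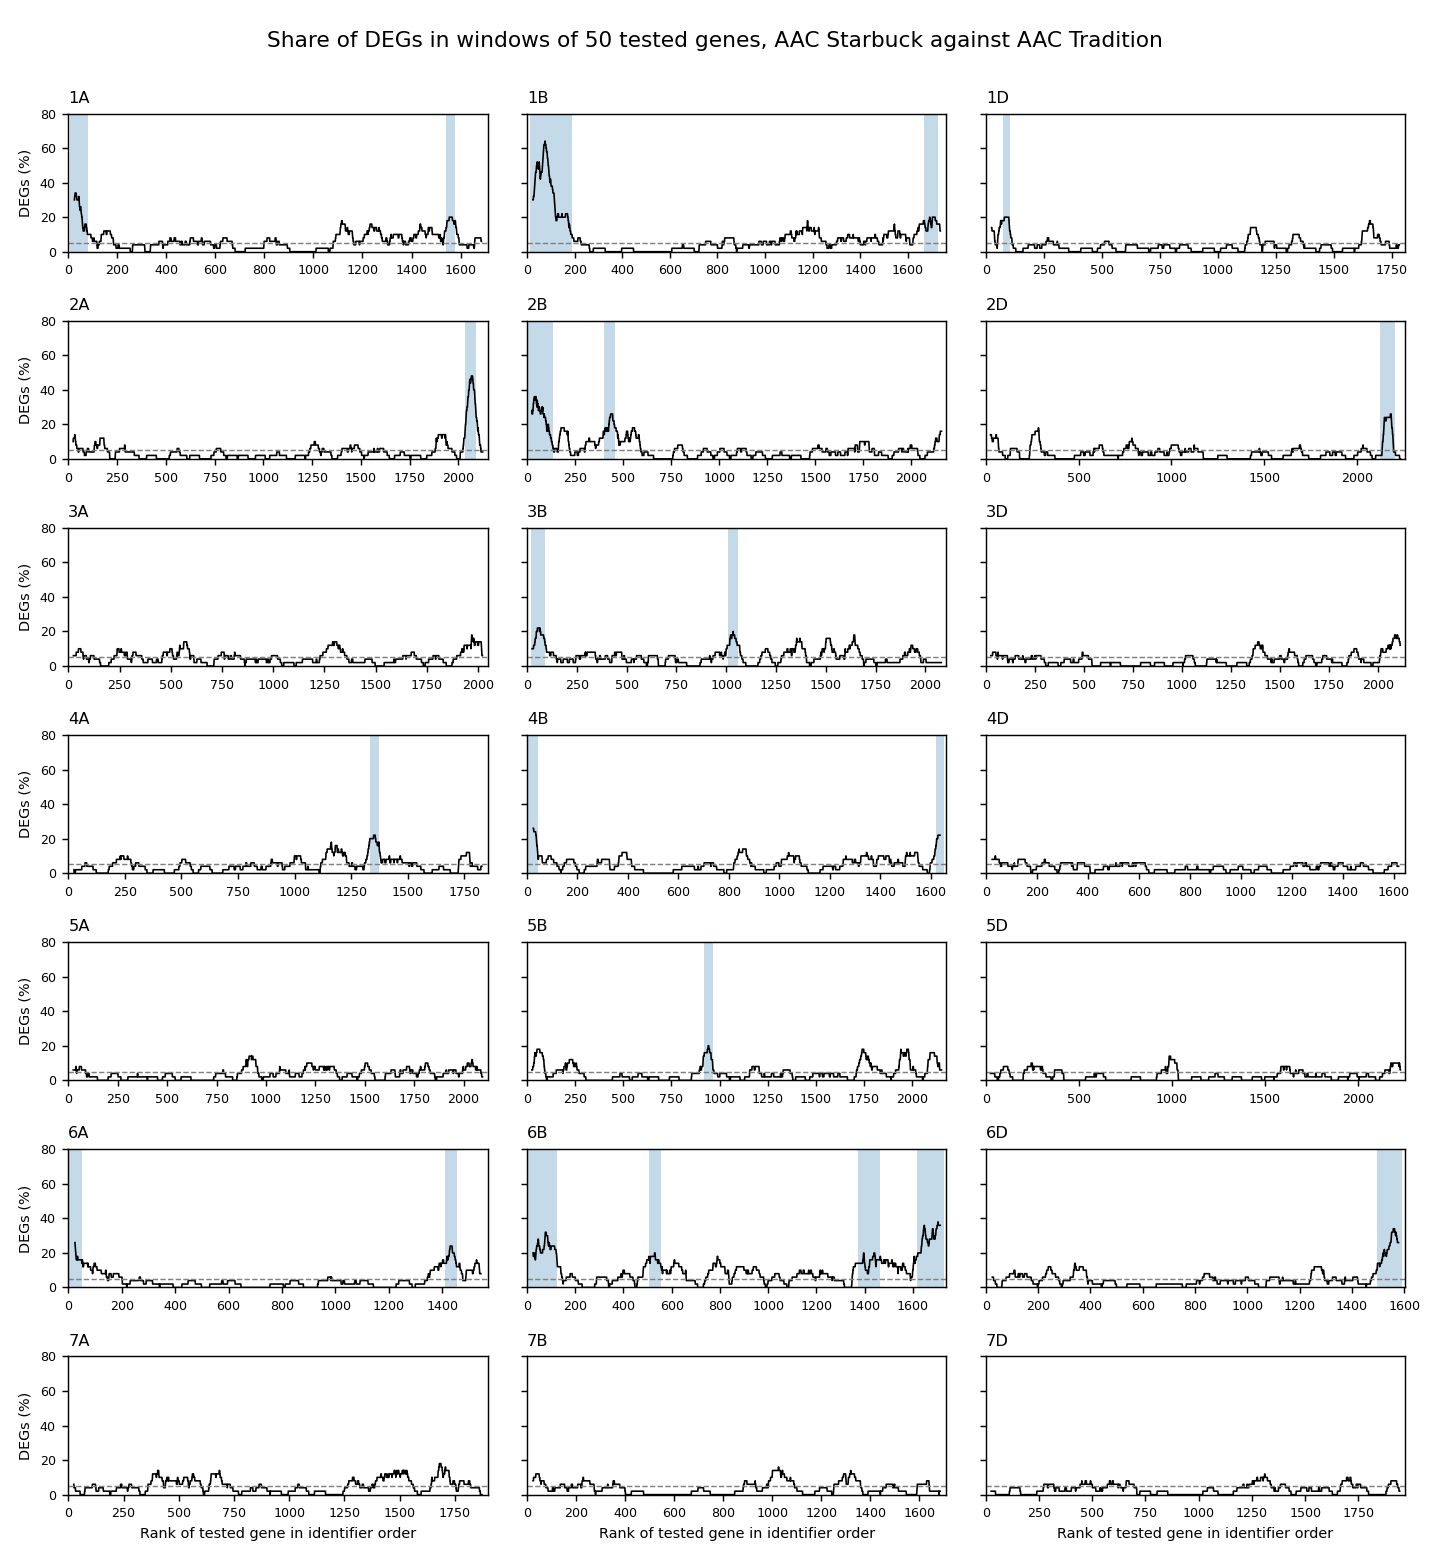
Share of DEGs (percent, vertical axis) in sliding windows of 50 tested genes along each chromosome, against the rank of the window's centre in identifier order (horizontal axis). Shaded spans are the 22 dense segments and the dashed line marks the 5.1% of all genes tested. The start of 1B, the end of 2A, both ends of 6B and the start of 2B stand above the rest of their chromosomes.

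The segment with most DEGs lay at the start of chromosome 1B, from TraesCS1B02G002900 to TraesCS1B02G077600, where 63 of 175 genes tested (36.0%) were DEGs, 40 higher and 23 lower in AAC Starbuck. In 14 of the 40 higher DEGs AAC Tradition was at or under 3 reads in all of its libraries, and 12 of these were at 0 in all 3 with AAC Starbuck at 10 or more throughout. The opposite, AAC Starbuck at or under 3 reads throughout, was found in 4 of the 23 lower DEGs. Over all DEGs these counts were 143 of the higher (14.1%) and 133 of the lower ones (12.5%). The directions came in runs, the longest being 12 consecutive DEGs from TraesCS1B02G022100 to TraesCS1B02G032500 that were all higher. TraesCS1B02G020600, the DEG of the segment with the highest mean, had 571, 771 and 569 normalized counts in AAC Starbuck, against 177, 167 and 138 in AAC Tradition (log2 fold change 1.97 ± 0.18, adjusted p = 4.9e-05 from limma). The first DEG, TraesCS1B02G002900, had 62.5, 66.5 and 41.5 in AAC Starbuck, against 3.72, 4.97 and 8.85 in AAC Tradition. The last, TraesCS1B02G077600, was lower in AAC Starbuck, at 28.0, 12.5 and 17.6 against 49.6, 57.6 and 145 in AAC Tradition.

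Single genes of the 1B segment, picked after their values were seen, show the contrast in both directions. TraesCS1B02G043600 had 82.4, 96.5 and 91.0 normalized counts in AAC Starbuck and 0 in every AAC Tradition library. AAC Concord (90.5 to 109.7) and AAC Magnet (103 to 109.8) were likewise far above 0. TraesCS1B02G030700 likewise had 62.0, 50.8 and 57.4 in AAC Starbuck and 0 in AAC Tradition. TraesCS1B02G008500 went the other way, with 11.5, 21.8 and 10.4 in AAC Starbuck, against 378, 397 and 467 in AAC Tradition, and 12.5 to 28.9 in AAC Concord and AAC Magnet. For 39 of the 63 DEGs both of these other varieties were nearer to AAC Starbuck on the log2 scale, and for 6 both were nearer to AAC Tradition. The libraries of AAC Concord and AAC Magnet did not choose these DEGs through their level, although they share in the estimate of the spread. Over all DEGs, both other varieties were nearer to AAC Starbuck in 590 (28.3%) and nearer to AAC Tradition in 624 (29.96%).

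The end of chromosome 2A showed the reverse. From TraesCS2A02G552800 to TraesCS2A02G569400, 26 of 58 genes tested (44.8%) were DEGs, 6 higher and 20 lower in AAC Starbuck, and 12 consecutive DEGs from TraesCS2A02G560300 to TraesCS2A02G565800 were all lower. In 8 of the 20 lower DEGs AAC Starbuck was at or under 3 reads in every library, and 7 of these were at 0 throughout with AAC Tradition at 10 or more in each library. AAC Concord and AAC Magnet were both nearer to AAC Tradition in 25 of the 26. TraesCS2A02G564300, picked after its values were seen, had 0, 1.04 and 0 normalized counts in AAC Starbuck, against 198, 203 and 241 in AAC Tradition, 269 to 313 in AAC Concord and 191 to 234 in AAC Magnet. TraesCS2A02G562000 had 0 in every AAC Starbuck library, against 68.6, 91.3 and 76.4 in AAC Tradition. The DEG with the highest mean went the other way: TraesCS2A02G559200 had 546, 479 and 506 in AAC Starbuck, against 162, 168 and 184 in AAC Tradition (log2 fold change 1.57 ± 0.15, adjusted p = 5.9e-05 from limma).

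The matching end of chromosome 2D held a segment as well, from TraesCS2D02G554600 to TraesCS2D02G585000, with 14 DEGs in 80 genes tested (17.5%), 3 higher and 11 lower in AAC Starbuck. Both other varieties were nearer to AAC Tradition in 12 of the 14. TraesCS2D02G567500 was at 0 in every AAC Starbuck library, against 175, 153 and 178 normalized counts in AAC Tradition, at least 63.4-fold lower. TraesCS2D02G566500, picked after its values were seen, was also at 0 in AAC Starbuck, against 156, 155 and 178 in AAC Tradition. At the same relative rank as the 2A segment, 12 of 59 genes tested on 2D (20.3%) and 2 of 58 on 2B (3.45%) were DEGs. The genes could not be paired as homoeologues, so whether the same gene differs on both chromosomes was not examined.

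Chromosome 6B held 4 segments. At its end, from TraesCS6B02G438800 to TraesCS6B02G471600, 39 of 114 genes tested (34.2%) were DEGs, 22 higher and 17 lower in AAC Starbuck. TraesCS6B02G452100 was at 0 in all AAC Starbuck libraries, against 408, 398 and 479 normalized counts in AAC Tradition, 314 to 428 in AAC Concord and 385 to 548 in AAC Magnet, so that AAC Starbuck stood alone, at least 161-fold below AAC Tradition. TraesCS6B02G440200, the DEG with the highest mean, had 360.2, 489 and 449.7 in AAC Starbuck, against 130.2, 128 and 153 in AAC Tradition (log2 fold change 1.65 ± 0.18). AAC Concord was nearer to AAC Tradition and AAC Magnet nearer to AAC Starbuck in 20 of the 39 DEGs, as in 539 (25.9%) of all DEGs. TraesCS6B02G470700 and TraesCS6B02G459600, picked after their values were seen, are of this kind. TraesCS6B02G470700 had 66.1, 52.7 and 65.0 in AAC Starbuck and 29.5 to 53.6 in AAC Magnet, while AAC Tradition and AAC Concord were at 0 throughout. TraesCS6B02G459600 had 4.11, 3.11 and 1.60 in AAC Starbuck, against 202, 163 and 212 in AAC Tradition. In the same relative position, 25 of 104 genes tested on 6D (24.0%) and 9 of 102 on 6A (8.82%) were DEGs.

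At the start of 6B, from TraesCS6B02G000100 to TraesCS6B02G063900, 32 of 125 genes tested (25.6%) were DEGs, 16 in each direction. Their median log2 fold change was 2.98 in size, and in 9 of the 16 lower DEGs AAC Starbuck was at or under 3 reads in every library. TraesCS6B02G000100 was at 0 in AAC Starbuck, against 18.6, 15.9 and 16.6 normalized counts in AAC Tradition. TraesCS6B02G005000 had 367, 319 and 395 in AAC Starbuck, against 102, 134 and 49.7 in AAC Tradition, and it was lower still in AAC Concord (21.5 to 45.4) and AAC Magnet (12.6 to 16.7). TraesCS6B02G063900 had 16.5, 12.5 and 5.59 in AAC Starbuck, against 42.1, 52.6 and 67.4 in AAC Tradition. The segment from TraesCS6B02G364500 to TraesCS6B02G389700 held 17 DEGs in 93 genes, 3 higher and 14 lower, of which the first 10 in order were all lower. Its TraesCS6B02G386500 had 95.5, 110.02 and 101 in AAC Starbuck, against 439, 454 and 499 in AAC Tradition (log2 fold change -2.17 ± 0.15, adjusted p = 2.7e-06 from limma). Its last DEG, TraesCS6B02G389700, was above 0 in AAC Tradition alone of the 4 varieties, at 32.2, 27.7 and 27.6. The 4th segment of 6B, from TraesCS6B02G182500 to TraesCS6B02G191600, held 2 higher and 9 lower DEGs.

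On chromosome 6D, 25 of 98 genes tested (25.5%) from TraesCS6D02G380800 to TraesCS6D02G405800 were DEGs, 18 higher and 7 lower in AAC Starbuck, with a run of 15 higher DEGs that closed the segment. TraesCS6D02G380800 had 44.0, 43.5 and 29.5 normalized counts in AAC Starbuck and 0 in AAC Tradition, at least 11.7-fold higher. TraesCS6D02G389500, with the highest mean, was lower, at 119, 206 and 103 in AAC Starbuck against 392, 456 and 648 in AAC Tradition. The last DEG, TraesCS6D02G405800, had 19.8, 14.4 and 11.2 in AAC Starbuck, against 2.48, 6.97 and 5.54 in AAC Tradition. Here too the most frequent pattern, in 13 of the 25, was AAC Concord nearer to AAC Tradition and AAC Magnet nearer to AAC Starbuck. At the end of 6A, the 12 DEGs from TraesCS6A02G379300 to TraesCS6A02G392800, in 43 genes tested, were all lower in AAC Starbuck. TraesCS6A02G389300, singled out after its values were seen as the one with the highest mean, had 341, 264 and 367 in AAC Starbuck, against 953, 1036 and 917 in AAC Tradition.

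The start of chromosome 2B, from TraesCS2B02G000100 to TraesCS2B02G058200, held 34 DEGs in 134 genes tested (25.4%), 17 in each direction. The W1 wax cluster lies in it, with 3 genes tested and none called. TraesCS2B02G000100 had 175, 55.0 and 51.1 normalized counts in AAC Starbuck, against 749.8, 737 and 951 in AAC Tradition (log2 fold change -3.34 ± 0.50, adjusted p = 0.0019 from limma). TraesCS2B02G012600 had 691, 532 and 748 in AAC Starbuck, against 230.5, 233 and 422 in AAC Tradition. TraesCS2B02G058200, the last DEG, had 113, 62.3 and 81.5 in AAC Starbuck, against 182, 168 and 175 in AAC Tradition. TraesCS2B02G015700 was above 0 in AAC Tradition alone, at 208, 204 and 353, and at 0 in all libraries of the other varieties, at least 95.9-fold lower in AAC Starbuck. The other varieties fell on different sides here: both were nearer to AAC Starbuck in 8 DEGs, both nearer to AAC Tradition in 11, AAC Concord alone nearer to AAC Starbuck in 12 and AAC Magnet alone in 3.

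On group 1, the start of 1A held 20 DEGs in 74 genes tested (27.0%) from TraesCS1A02G001800 to TraesCS1A02G029800, 7 higher and 13 lower in AAC Starbuck. TraesCS1A02G019000 had 196, 217 and 209.9 normalized counts in AAC Starbuck, against 475, 448 and 542 in AAC Tradition (log2 fold change -1.23 ± 0.13). TraesCS1A02G001800 had 72.8, 46.7 and 95.7 in AAC Starbuck, against 207, 186 and 214 in AAC Tradition, and TraesCS1A02G029800 went the other way, at 105, 68.5 and 63.9 against 29.7, 44.7 and 31.0. In 13 of these 20 DEGs AAC Concord was nearer to AAC Tradition and AAC Magnet nearer to AAC Starbuck. On 1D, the segment from TraesCS1D02G026800 to TraesCS1D02G037700 held 10 DEGs in 31 genes, 1 higher and 9 lower, and 4 of the lower ones were at 0 in every AAC Starbuck library. TraesCS1D02G029000, picked after its values were seen, was at 0 in AAC Starbuck, against 75.6, 73.5 and 65.3 in AAC Tradition. In the interval of 1B at the same relative rank, 16 of 29 genes (55.2%) were DEGs. The start of 4B held 5 higher and 8 lower DEGs in 43 genes. In 10 of these 13, AAC Concord was nearer to AAC Starbuck and AAC Magnet nearer to AAC Tradition. This pattern also held in 8 of the 13 DEGs at the end of 1B (TraesCS1B02G452100 to TraesCS1B02G474500), and in 330 (15.8%) of all DEGs. The remaining segments held 10 to 14 DEGs each.

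**Figure D3:**
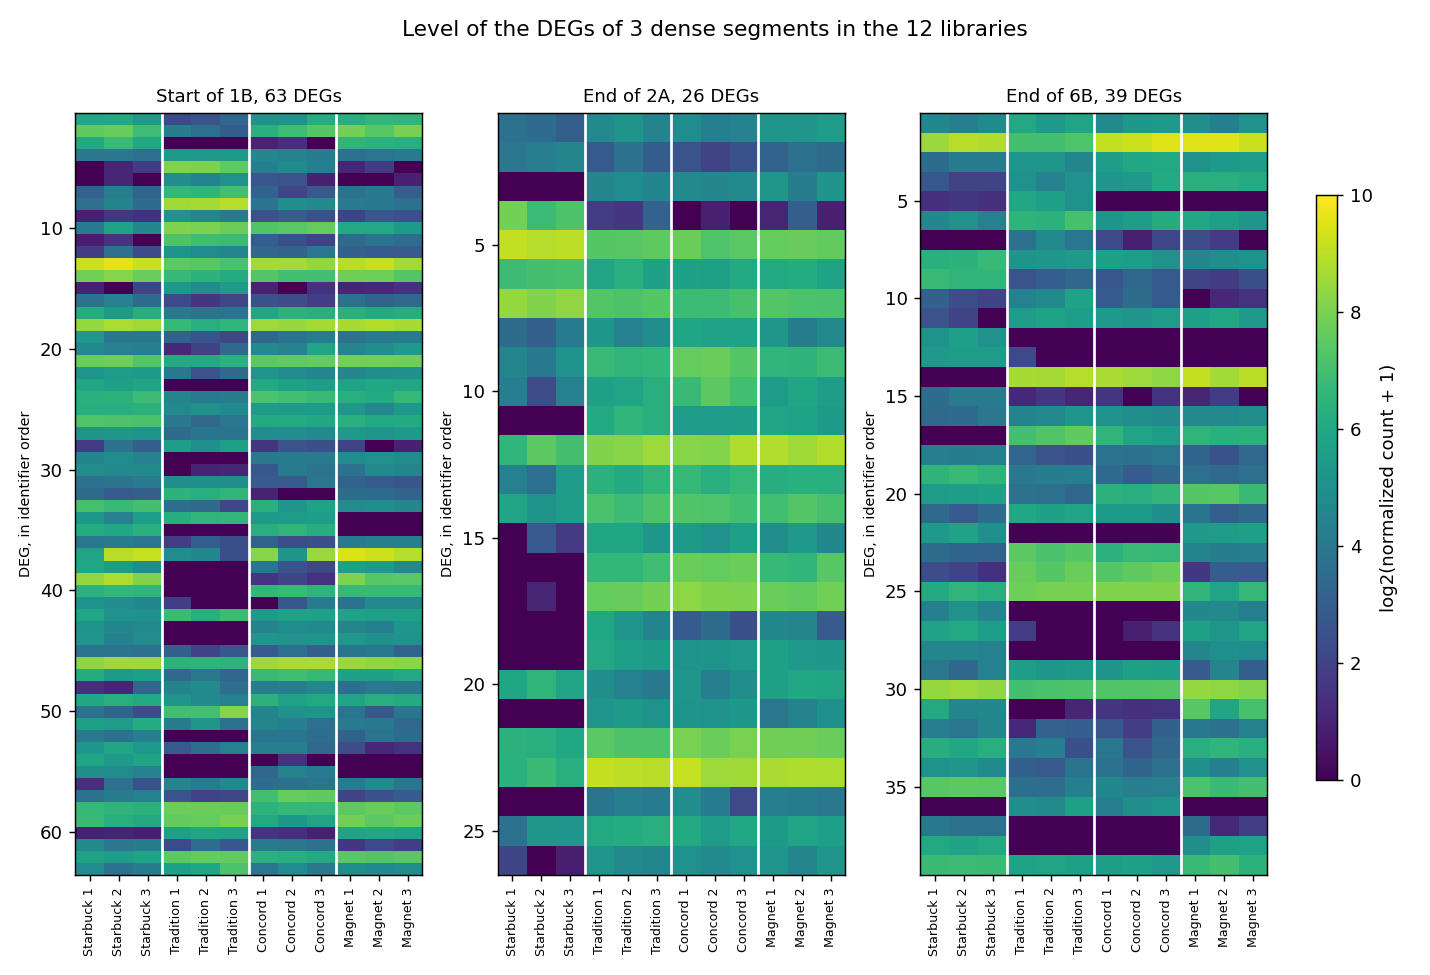
Level of every DEG (rows, in identifier order) in 3 dense segments, as log2(normalized count + 1) by colour, in the 3 libraries each of AAC Starbuck, AAC Tradition, AAC Concord and AAC Magnet (columns, with white lines between varieties). At the start of 1B (63 DEGs) the dark rows at 0 are mostly in AAC Tradition, and at the end of 2A (26 DEGs) they are in AAC Starbuck. At the end of 6B (39 DEGs) AAC Concord often resembles AAC Tradition and AAC Magnet often resembles AAC Starbuck.

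Some genes were detected in a single variety of the pair. In 75 genes (0.184% of the genes tested) all AAC Starbuck libraries were at 10 or more and all AAC Tradition libraries at 0, and in 82 genes (0.201%) the reverse held. All 157 were DEGs, and 69 of them (43.9%) lay in dense segments, against 20.2% of all DEGs. Such genes had to differ to pass the filter, and as DEGs they help to define the segments, so neither count is a separate result. Of the 75 detected in AAC Starbuck, 45 were on B, 18 on A, 6 on D and 6 on unplaced scaffolds, with 13 on 1B, 13 on 6B and 9 on 3B. Of the 82 detected in AAC Tradition, 36 were on B, 27 on A, 13 on D and 6 unplaced, with 15 on 6B, 8 on 2A and 2 on 1B. A gene at 0 may still be expressed below 3 reads, so each fold is a lower bound with regard to counting error only. It is taken against the mean value of 3 reads per library (2.66 normalized counts in AAC Starbuck and 3.34 in AAC Tradition). Whether reads of these genes match the reference equally well in both varieties was not tested.

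The most abundant of the genes at 0 in AAC Tradition were the following 5. TraesCSU02G066200 had 742, 834 and 738 normalized counts in AAC Starbuck, at least 231-fold higher than AAC Tradition. It was also at 0 in AAC Concord, whereas AAC Magnet averaged 607. TraesCS1B02G043400, in the 1B segment, had 328, 431 and 271 in AAC Starbuck, at least 103-fold higher. TraesCS3B02G381800 had 221, 289 and 317 in AAC Starbuck, at least 82.5-fold higher, and was at 0 in every library of the other varieties. The neighbours TraesCS3B02G364500 (187, 247 and 216 in AAC Starbuck, at least 64.9-fold higher) and TraesCS3B02G364400 (171, 155 and 149, at least 47.5-fold higher) were both at 0 in AAC Magnet too and above 0 in AAC Concord. TraesCS4B02G391700, with one of the 8 highest fitted fold changes, had 146, 138 and 113 in AAC Starbuck and was at 0 in AAC Tradition.

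Of the genes at 0 in AAC Starbuck, TraesCSU02G060600 had the highest level in AAC Tradition, at 1412, 1390.4 and 1299.96 normalized counts. AAC Starbuck was at least 514-fold lower, AAC Concord was at 0 and AAC Magnet averaged 1677. TraesCS1A02G278800 was at least 221-fold lower, against 440.1, 370.4 and 952 in AAC Tradition, and AAC Magnet was at 0 as well. TraesCS3B02G024500 was at least 182-fold lower, against 503, 529 and 424 in AAC Tradition, with both other varieties above 0 in all libraries. TraesCS5A02G381700 had 202, 218 and 139 in AAC Tradition, was at 0 throughout AAC Starbuck as well as AAC Concord, and averaged 1.48 in AAC Magnet. AAC Tradition was thus the one variety with a clear level of this gene.

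A few genes differed as widely without being at 0 in every library of either variety. TraesCSU02G214700 had 1673, 1697 and 1495 normalized counts in AAC Starbuck, against 8.67, 9.92 and 3.32 in AAC Tradition (log2 fold change 7.72 ± 0.43, adjusted p = 4.8e-07 from limma). AAC Magnet, at a mean of 1778, was like AAC Starbuck, and AAC Concord, at 85.0, lay between. TraesCS6A02G052400 had 5.76, 9.35 and 5.59 in AAC Starbuck, against 1994, 1802 and 1793 in AAC Tradition (log2 fold change -7.91 ± 0.36, adjusted p = 7.4e-08 from limma), and it averaged 0.275 in AAC Concord and 0.942 in AAC Magnet. TraesCS4A02G447600 had 349, 600.6 and 378 in AAC Starbuck, against 1.25, 0 and 0 in AAC Tradition.

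The other varieties were not all alike in the genes detected in a single variety of the pair. Of the 75 genes detected in AAC Starbuck, AAC Concord was at 0 in all libraries for 35 and AAC Magnet for 22, and 11 were at 0 in both. Of the 82 detected in AAC Tradition, AAC Concord was at 0 for 19, AAC Magnet for 34 and both for 8. Both other varieties were at 10 or more in all libraries for 11 of the 75 and for 25 of the 82. In these 25, AAC Starbuck was the single variety in which the transcript was not detected at this depth. Over all DEGs, AAC Concord was nearer to AAC Starbuck in 920 (44.2%) and AAC Magnet in 1129 (54.2%).

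The wax genes were listed by the study, which described them on these same samples, so their values here are not independent evidence of a direction. Of 39 listed genes, 28 were above 0 in at least 1 of the 6 libraries and 11 passed the filter. None of the 11 was a DEG between AAC Starbuck and AAC Tradition by limma, and 2 had an unadjusted p under 0.05. Of the 11, 7 had a positive and 4 a negative log2 fold change, with a median of 0.82, against a median of 0.007 and 5.1% DEGs over all genes tested. In 10 of the 11, all except the TaCER1-6 gene, the lowest of the 6 libraries was replicate 3 of AAC Tradition. Without that library 5 were positive and 6 negative, with a median of -0.20, so the balance of directions rests on it.

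The DKP genes encode the polyketide synthases that build the β-diketone chain. The 8 listed DKP genes together summed to 859, 755 and 697 normalized counts in AAC Starbuck, against 813, 852 and 40.9 in AAC Tradition. Replicates 1 and 2 of AAC Tradition were therefore within the range of AAC Starbuck, and replicate 3 was far below. In AAC Concord the sum was 171, 217 and 106, and in AAC Magnet 122, 174 and 33.8. Replicate 3 was thus the lowest library in each of the 4 varieties, by the widest margin in AAC Tradition. The cause was not tested. The 5 DKP genes that passed the filter did not behave alike. TraesCS2B02G006300 had 13.2, 8.30 and 21.6 in AAC Starbuck, against 176, 209 and 5.53 in AAC Tradition (log2 fold change -2.12 ± 1.27, 95% interval -4.91 to 0.67, adjusted p = 0.37 from limma). Without AAC Tradition replicate 3 its log2 fold change was -3.75, with an adjusted p of 0.0504 from limma. TraesCS2B02G006700 had 291, 237 and 253 in AAC Starbuck, against 176, 188 and 4.42 in AAC Tradition (log2 fold change 2.20, adjusted p = 0.37 from limma). TraesCS2B02G006800 had 335, 284 and 208 in AAC Starbuck, against 207, 199.6 and 11.1 in AAC Tradition (log2 fold change 1.77, adjusted p = 0.44 from limma). Without replicate 3 of AAC Tradition these became 0.51 and 0.41.

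On chromosome 2D, TraesCS2D02G015700 had 40.4, 33.2 and 35.1 normalized counts in AAC Starbuck, against 23.6, 20.9 and 0 in AAC Tradition (log2 fold change 2.19, adjusted p = 0.27 from limma, and 0.68 without AAC Tradition replicate 3). TraesCS2D02G016100 had 178, 192 and 176 in AAC Starbuck, against 226, 233 and 19.9 in AAC Tradition. Its log2 fold change was 0.82 with all libraries and -0.33 without AAC Tradition replicate 3, so its direction rests on that library. The hydrolase and P450 genes of the cluster stayed below the filter. The DMH gene TraesCS2B02G006100 had 4.95, 7.26 and 27.1 in AAC Starbuck, against 24.8, 0 and 0 in AAC Tradition. The P450 gene TraesCS2B02G005800 had 11.5, 2.08 and 1.60 in AAC Starbuck and 0 in every AAC Tradition library, and TraesCS2B02G006600, another P450 gene, had 0 in AAC Starbuck and 2.48, 4.96 and 0 in AAC Tradition. At these levels a library held few reads of each gene. When genes of any level were tested, TraesCS2B02G005800 passed the threshold (log2 fold change 2.22, adjusted p = 0.049 from limma).

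**Figure D4:**
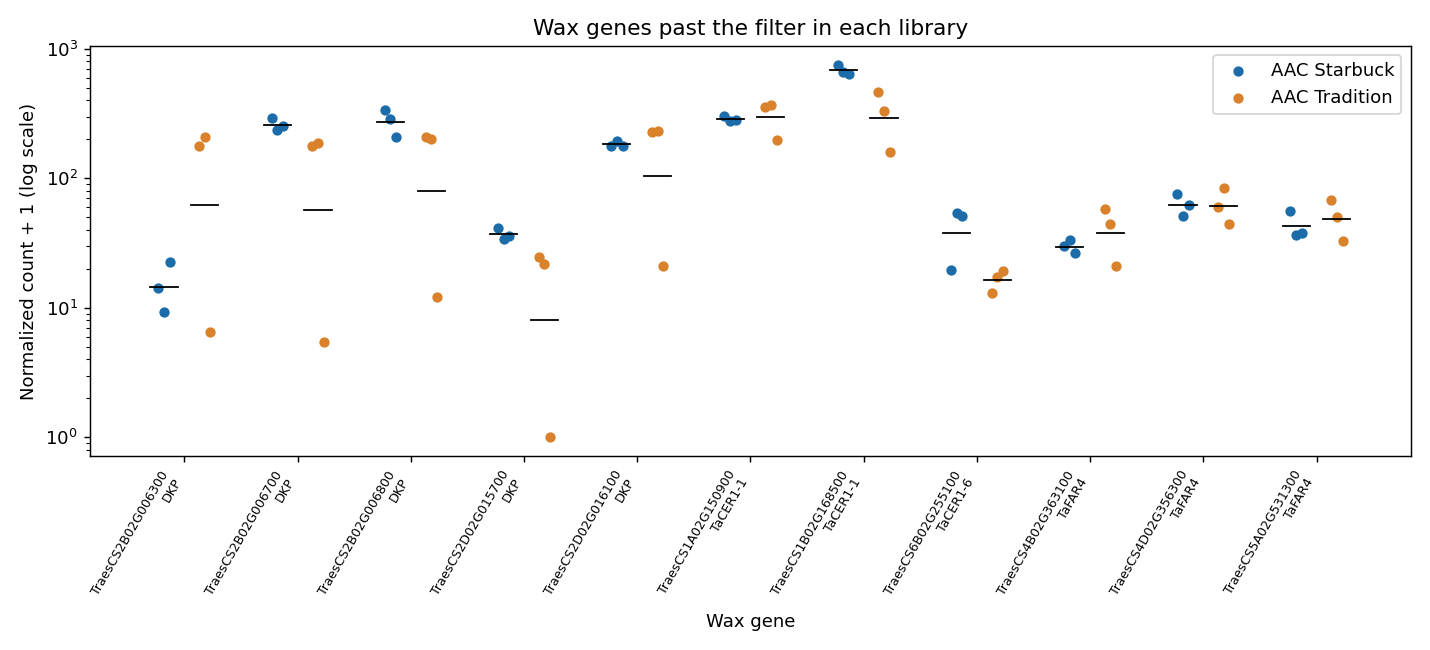
Normalized count + 1 (log scale) of the 11 wax genes that passed the filter, in each library of AAC Starbuck (left of each pair) and AAC Tradition (right). Black bars are means on the log scale of 3 libraries. The lowest AAC Tradition point of all 5 DKP genes and both TaCER1-1 genes is replicate 3, and TraesCS2B02G006300 is the DKP gene with AAC Starbuck below the other AAC Tradition libraries by the widest margin.

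TaCER1-1 and TaCER1-6 belong to the alkane-forming pathway, and both had a B homoeologue at a higher mean in AAC Starbuck. TraesCS1B02G168500 had 756, 660.3 and 641 normalized counts in AAC Starbuck, against 462, 332 and 158 in AAC Tradition. The libraries did not overlap, and the difference of 1.24 on the log2 scale (SE 0.37) missed the threshold with an adjusted p of 0.069 from limma. It passed with the same total in each library (0.048), with genes of a mean of at least 50 (0.047), with a trend in the prior variance (0.032) and without AAC Tradition replicate 1 (0.034). Without AAC Tradition replicate 3 the log2 fold change was 0.80, with an adjusted p of 0.185 from limma. Its A homoeologue TraesCS1A02G150900 had 303, 277 and 280.3 in AAC Starbuck, against 356, 367 and 196 in AAC Tradition (log2 fold change -0.04), and the D homoeologue TraesCS1D02G147900 was at no more than 2.21 in all 6 libraries. The TaCER1-6 gene TraesCS6B02G255100 had 18.5, 52.6 and 49.8 in AAC Starbuck, against 12.1, 16.5 and 18.3 in AAC Tradition (log2 fold change 1.20 ± 0.39, adjusted p = 0.098 from limma, and 0.013 without AAC Starbuck replicate 1). Its homoeologues TraesCS6A02G226500 and TraesCS6D02G208500 were at or below 3.84 normalized counts.

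The TaFAR4 reductases that passed the filter had log2 fold changes of -0.35 to 0.03. TraesCS4D02G356300 averaged 61.8 ± 12.1 normalized counts in AAC Starbuck and 62.0 ± 20.3 in AAC Tradition (SD, n = 3 each). TraesCS5A02G531300 averaged 42.4 ± 11.1 in AAC Starbuck and 49.6 ± 17.4 in AAC Tradition. TraesCS4B02G363100 had 28.8, 32.2 and 25.6 in AAC Starbuck, against 57.0, 43.7 and 19.9 in AAC Tradition (log2 fold change -0.35, adjusted p = 0.58 from limma). Without AAC Tradition replicate 3, the log2 fold change of this gene was -0.78, with an adjusted p of 0.066 from limma. The TaFAR2 gene TraesCS4A02G388600 stayed low, at 0.831 to 1.61 in AAC Starbuck against 2.50 to 6.01 in AAC Tradition. The other FAR genes were at 0, or at no more than 3.72 normalized counts.

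The balance between copies was taken as the share of a member in its family within each library, so that the total of the family cancels. These 4 shares were chosen after the values were seen, and with 3 against 3 libraries the smallest p of the two-sided exact permutation test is 0.10. The 1B gene held 71.3%, 70.4% and 69.4% of TaCER1-1 in AAC Starbuck, against 56.5%, 47.3% and 44.4% in AAC Tradition (exact permutation p = 0.10, adjusted over the 4 shares 0.20). TraesCS2B02G006300 held 2.06%, 1.57% and 4.44% of the DKP transcripts of 2B in AAC Starbuck, against 31.2%, 35.0% and 26.3% in AAC Tradition (exact permutation p = 0.10, adjusted 0.20). The value of 26.3% in AAC Tradition replicate 3 rests on 5 of 19 reads (95% Wilson interval 11.8% to 48.8%, counting error only), and it lay with the other libraries of AAC Tradition although the level of the gene there did not. In AAC Concord the share was 11.6% to 14.5%. In AAC Magnet it was 33.3% in replicate 1, on 1 of 3 reads, and 28.1% in replicate 2, on 9 of 32 reads, and replicate 3 had no reads of the 2B genes. The 2B genes together held 71.5% ± 2.71 of all DKP transcripts in AAC Starbuck and 63.6% ± 10.6 in AAC Tradition (SD, n = 3 each, exact permutation p = 0.30). The lower mean rests on AAC Tradition replicate 3, at 51.4% on 19 of 37 reads, whereas replicates 1 and 2 held 69.4% and 70.2%. The 4B gene held 22.1% ± 4.77 of TaFAR4 in AAC Starbuck and 25.6% ± 5.13 in AAC Tradition (SD, n = 3 each, exact permutation p = 0.40). Neither of these last differences was larger than the spread between libraries. Salmon divides reads that match several near-identical copies by estimation, so shares between copies are less certain than the sums of a family.

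**Figure D5:**
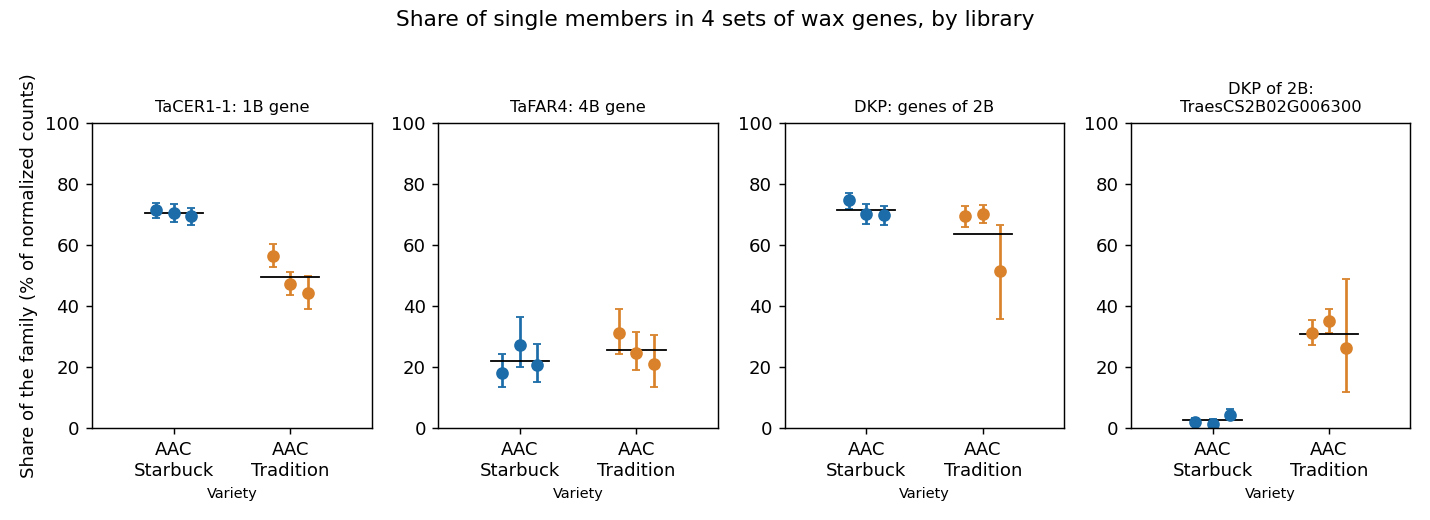
Share of a single member, or of the 2B genes, in 4 sets of wax genes (percent of normalized counts, vertical axis) in each library of AAC Starbuck (left) and AAC Tradition (right). Error bars are 95% Wilson intervals on the estimated reads and black lines are means of 3 libraries. The shares do not overlap for the 1B gene of TaCER1-1 and for TraesCS2B02G006300, and they overlap for the other two sets.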

How the data were processed

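Flag leaf RNA was sequenced in 12 libraries, 3 for each of 4 varieties. Per the study's methods, the authors trimmed the reads with Trimmomatic and quantified transcripts with Salmon on the IWGSC wheat reference, and tested genes with DESeq2. The deposited signal values are normalized counts per gene made by the authors, and the step that normalized them is not given in the sources used here. Whole reads could not be recovered for every gene. Of the low values in the 6 libraries, 90.1% to 93.2% lay within 0.05 of a whole step. No count test was therefore run, and limma 3.58.1 in R 4.3.3 took its place. The fit held all 12 libraries on log2(normalized count + 1), with the contrast AAC Starbuck minus AAC Tradition and a genewise spread on 8 residual degrees of freedom. The prior spread had 3.04 degrees of freedom. Genes at 10 or more in at least 3 of the 6 libraries were tested. Salmon shares reads among near-identical copies by estimation.

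Named genes were all wax genes of the study's list, the 8 DEGs of highest and the 8 of lowest fold change whose mean reached 50 and whose libraries did not overlap, the 4 most abundant DEGs of each direction, the first, last and most abundant DEG of the 8 segments with most DEGs, the 5 most abundant genes of each direction detected in a single variety, and genes that decide a sentence, named as picked after their values were seen. The genes, lists and rules were chosen with earlier results of these data known. The identifiers matched none of the 155467 genes of the reference table, so position is the order of identifiers and no descriptions, coordinates or sequences are given. Alternatives changed the pseudocount, the filter, the scaling, the prior trend, the libraries in the fit, a block for the replicate number, the fold limit and the rules for segments and detection, and left out each of the 6 libraries in turn. The fit was tested on simulated counts with the same dispersion (0.0073) for all genes and no outlying library, unlike these data. It called 51 of 100 genes with a log2 change of 1, which is the fold limit itself. At a log2 change of 2 it called 100 of 100, and 3 unchanged genes were called. Tables and figures were made with Python 3.11.15, numpy 2.4.6, pandas 2.3.3 and matplotlib 3.10.9.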

Additional observations from a re-analysis of the deposited data

How the results depend on the processing

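No DEG had the opposite sign under any of the 16 alternatives of the fit. The sign could not turn where only the filter, the prior trend, the replicate block or the fold limit changed. The same holds for the fit without AAC Concord and AAC Magnet, since the log2 fold change is identical in all of these. Of the 2083 DEGs, 1194 (57.3%, 547 higher and 647 lower in AAC Starbuck) were called in the same direction without each of the 6 libraries in turn. Those fits called 1555 to 1919 DEGs, 693 to 879 higher and 822 to 1040 lower, and gave 18 to 21 segments that overlapped all 8 of the largest each time. With genes of a mean of at least 50, 881 DEGs were called (314 higher, 567 lower), in 4.10% of genes on A, 5.06% on B and 3.27% on D, with 7 segments that overlapped 6 of the 8 largest. Without a limit on the fold, 1626 genes were lower. Windows of 25 genes gave 82 segments, windows of 100 genes gave 7 and a share of at least 30% gave 7. A minimum of 30 left 34 genes detected in AAC Starbuck alone and 36 in AAC Tradition alone, and a maximum of 3 normalized counts in the other variety gave 135 and 140. With all genes tested, 1 wax gene was called (TraesCS2B02G005800). Under the same total, a prior trend, the replicate block or the limit of 50 on the mean, 1 was called as well (TraesCS1B02G168500), and leaving out a library gave 0 to 1, with TraesCS6B02G255100 called without AAC Starbuck replicate 1 and TraesCS1B02G168500 without AAC Tradition replicate 1. No label ties a replicate number to a shared batch. Deviations of same-numbered libraries of AAC Starbuck and AAC Tradition correlated at -0.131 to 0.042, and at -0.126 to 0.202 for other numbers. Over all 4 varieties, same-numbered libraries correlated at -0.131 to 0.233 (median 0.037) and libraries of other numbers at -0.244 to 0.202 (median -0.015). Whether libraries of one number share a batch was not tested. With the replicate block, 2062 DEGs were called, 1028 higher and 1034 lower. Direction turned in 4 wax genes, none of them called. TraesCS1A02G150900 had a log2 fold change of 0.079 with the same total and ranged from -0.33 to 0.12 without a library. TraesCS4D02G356300 ranged from -0.20 to 0.26, including -0.11 without AAC Starbuck replicate 1, TraesCS5A02G531300 from -0.46 to 0.055 and TraesCS2D02G016100 from -0.33 to 1.41. The cause was not tested. Of the other values of the 58 named genes, 847 kept their direction and side of the threshold, 54 lost the call and 6 gained it. Depth limits genes of a few reads, for which a 0 does not show absence.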
